A study of Mus musculus with 4 samples.

Results

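The collagen chain genes of the mouse were followed on 4 single-colour Agilent arrays, 2 hybridised with RNA from islet-like clusters and 2 with RNA from islets of Langerhans. Members were all genes whose name on the array is Col, a number, the letter a and a number, which took 67 of the 55681 non-control probes (76 spots) and 43 genes. By type these were 11 fibrillar chains, 9 network-forming chains, 9 FACIT chains (fibril-associated collagens with interrupted triple helices), 4 transmembrane chains and 10 others (the beaded-filament, anchoring-fibril and multiplexin collagens and type XXVIII). Of the 43 genes 33 could be tested. Among the other 10, no probe of Col2a1, Col4a3, Col6a4, Col6a5, Col9a3, Col10a1, Col13a1, Col22a1 or Col28a1 was well above background on any array (9 genes), and Col6a6 was so on 1 array of each group.

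Collagens are secreted or membrane proteins of 3 chains wound into a triple helix, in which glycine recurs at regular steps along each chain. Fibrillar collagens form the tensile fibres of connective tissue, FACIT collagens sit on their surface, type IV collagens form the sheet of basement membranes, and transmembrane collagens serve in cell adhesion. Fibroblasts and other mesenchymal cells are the main source of fibrillar collagen, and in the pancreas the stellate cell is the best known producer. Islets are bounded by a basement membrane around their capillaries and, in part, at their surface.

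All RNA came from male Swiss albino mice aged 10 to 12 weeks. Pancreata of groups of 2 to 4 animals were digested with collagenase and plated, and the islets were flushed off after 48 h and purified. The titles of the islet samples name this culture period, whereas their descriptions call the islets freshly isolated, and the labels do not settle which holds. The attached fibroblastoid (MSC-like) cells were passaged and then induced for 10 days in serum-free medium with albumin, insulin, transferrin and selenium on low-adherence dishes, with 0.3 mM taurine from day 3. From day 7 the taurine was raised to 3 mM, and GLP-1, an incretin peptide, and nicotinamide at 100 mM were added. Undifferentiated MSC-like cells were not analysed here, so the comparison is of clusters with islets and not of induced with uninduced cells. Since no label states that replicate samples are separate pools of animals, the p-values cover the spread among the arrays alone, and this spread may be technical.

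Levels are log2 signal relative to the 75th percentile of the array, and differences are clusters minus islets with the standard error (SE) of a limma fit over 24596 genes. Between 59.7% and 63.6% of spots were well above background on each array, and no spot was saturated. At an adjusted p below 0.05, 26.6% of all genes tested were higher in clusters and 28.2% lower. Mesenchymal markers were higher in clusters, 6 of 6. Twist1 was not well above background on either islet array, so a call for it could only be higher. The summed level of these markers was 7.95 to 8.21 on the cluster arrays and 3.74 to 3.97 on the islet arrays. Among them Pdgfra, a fibroblast receptor for platelet-derived growth factor, differed by 5.77 ± 0.24 and Vim, vimentin, by 2.91 ± 0.24. Endocrine, acinar and duct or epithelial markers were lower in clusters in 6 of 6, 5 of 5 and 5 of 5 genes. Of these, 3 endocrine, 2 acinar and 0 duct or epithelial markers were well above background on both cluster arrays. The others were tested only because the islet arrays detected them. For those dim on both cluster arrays a call could only be lower. Ins1, detected on all 4 arrays, lay at -3.35 and -3.58 in clusters against 4.77 and 2.15 in islets. The acinar marker Cpa1 lay at 9.47 and 9.83 on the arrays labelled as islets. In such bulk samples fewer cells of a type and less RNA per cell cannot be told apart.

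A few collagen probes carry letters that could encode the glycine repeat. The 60-base probes below have a reading frame without stop codons that holds at least 5 codons of the form GGN, the codons of glycine, as did 6 of 67 collagen probes (8.96%) against 0.846% of all non-control probes. They are shown 5′ to 3′ because they belong to members of 4 types whose values follow, with GGN codons of that frame in capitals.
Col14a1: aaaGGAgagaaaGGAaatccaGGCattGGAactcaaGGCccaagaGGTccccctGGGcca
Col15a1: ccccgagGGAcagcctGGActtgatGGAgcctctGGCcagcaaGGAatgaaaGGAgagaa
Col16a1: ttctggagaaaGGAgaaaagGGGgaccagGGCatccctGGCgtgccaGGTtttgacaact
Col25a1: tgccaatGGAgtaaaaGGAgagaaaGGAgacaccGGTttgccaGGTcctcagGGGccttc
Col4a4: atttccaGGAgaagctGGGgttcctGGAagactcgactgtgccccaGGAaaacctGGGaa
On mm9 these probes lie at chr15:55347733-55347792 (+), chr4:47283786-47283845 (+), chr4:129756457-129756516 (+), chr3:130270497-130270556 (+) and chr1:82515563-82515622 (-). The Col14a1 probe has 7 GGN codons, those of Col15a1 and Col25a1 have 6, and those of Col16a1 and Col4a4 have 5. Whether these or the other collagen probes lie in coding sequence was not analysed here.

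Collagen genes were higher in clusters more often than lower. Of the 33 tested, 21 were higher, 3 were lower and 9 did not pass (limma, Benjamini-Hochberg adjusted over all genes tested). Of all genes tested 54.8% passed, 26.6% as higher and 28.2% as lower. The median difference of the 33 collagen genes was 2.61, against -0.10 for all genes. A member dim in both groups could not enter this count. Of the 33, 5 entered through the cluster arrays only (Col24a1, Col11a1, Col11a2, Col8a1 and Col12a1) and 2 through the islet arrays only (Col19a1 and Col25a1). All of these but Col11a2 and Col25a1 were dim on both arrays of the other group, so their call could only be in that direction. With only probes well above background on all arrays, 16 of 26 collagen genes were higher and 2 lower, where 50.8% of all genes so tested passed, 25.3% as higher and 25.5% as lower. By type, 10 of 10 fibrillar genes were higher, 3 of 7 network genes, 2 of 7 FACIT genes, 2 of 3 transmembrane genes and 4 of 6 of the others. With only probes well above background on all arrays these counts were 7 of 7, 2 of 6, 1 of 5, 2 of 2 and 4 of 6. The 3 lower genes were Col9a2 and Col19a1 of the FACIT type and Col8a2 of the network type. The median difference was 4.58 for fibrillar, 0.48 for network, -0.55 for FACIT, 1.90 for transmembrane and 3.49 for other chains, and the difference between types was not tested. With members dim in 1 group set at their bound the median was 2.49 over all 33 and 4.11 for the fibrillar genes.

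**Figure D1:**
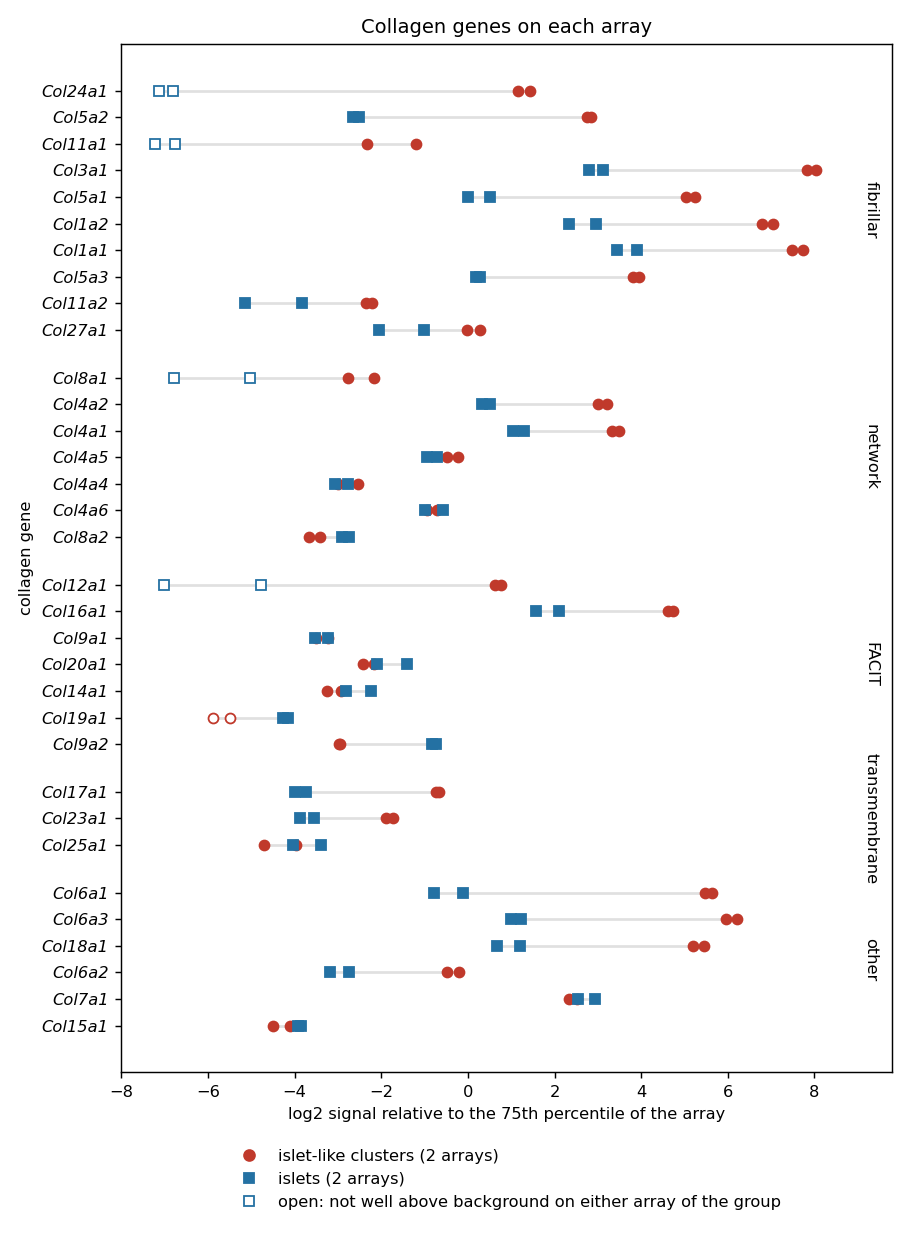
Log2 signal of the 33 tested collagen genes on each array (x axis, relative to the 75th percentile of the array), by type and ordered by the difference between groups. Circles are the 2 cluster arrays and squares the 2 islet arrays, and open symbols mark a group in which the probe was not well above background on either array. In all 10 fibrillar genes both cluster arrays lie to the right of both islet arrays.

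The most familiar fibril chains were well above background on all 4 arrays and far higher in clusters. Col1a1, the main chain of type I collagen of skin, tendon and bone (probe at mm9 chr11:94813115-94813174), lay at 7.73 and 7.48 on the cluster arrays and at 3.44 and 3.90 on the islet arrays. Its partner chain Col1a2 (mm9 chr6:4490619-4490678) lay at 7.04 and 6.80 in clusters and 2.33 and 2.95 in islets. The groups did not overlap in either gene, and the differences were 3.94 ± 0.26 (15.3-fold, adjusted p = 1.36e-06) and 4.28 ± 0.27 (19.5-fold, adjusted p = 1.21e-06). Col3a1, the type III chain of reticular fibres and vessel walls (mm9 chr1:45405589-45405648), lay at 8.04 and 7.84 in clusters and 2.79 and 3.13 in islets, a difference of 4.98 ± 0.24 (31.6-fold, adjusted p = 2e-07).

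The chains of type V, which starts type I fibrils and limits their width, moved the same way. Col5a2 lay at 2.85 and 2.75 in clusters and -2.52 and -2.66 in islets, a difference of 5.39 ± 0.23 (41.9-fold, adjusted p = 8.33e-08). Col5a1 differed by 4.88 ± 0.26 and Col5a3 by 3.65 ± 0.23. Each type V chain had its 2 cluster arrays above its 2 islet arrays. Col5a2 and Col3a1 are neighbours on chromosome 1 with 0 protein-coding genes between them in the RefSeq table.

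Minor fibrillar chains gave the largest bound and the smallest difference of this type. Col24a1, a chain found beside type I collagen in developing bone (mm9 chr3:145214473-145214532), lay at 1.43 and 1.16 in clusters and was not well above background in islets (-7.12 and -6.82). It was at least 102-fold higher in clusters, a bound taken against the lowest well-detected signal of each islet array. The limma adjusted p of 1.28e-08 belongs to the fitted difference of 8.27, which rests on the dim islet values. Because of the filter a call could only be in this direction. With normexp background correction the difference was 3.68, under that bound. The bound was 72.3-fold without islet replicate 1 and 144-fold without islet replicate 2.

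The type XI chains, best known from cartilage fibrils, were dimmer. Col11a1 lay at -2.33 and -1.19 in clusters and was not well above background in islets (-7.23 and -6.76). This made it at least 12.2-fold higher (adjusted p = 2.21e-06 for the fitted difference). With normexp background correction its difference was 1.20, under that bound. Col11a2 lay at -2.22 and -2.35 in clusters and at -5.13 and -3.83 in islets, where it was well above background only on replicate 2. Its difference of 2.19 ± 0.38 (adjusted p = 0.00101) was 1.54 without islet replicate 1 and 2.85 without islet replicate 2, and it did not pass when cluster replicate 1 was left out (adjusted p = 0.0562). Col27a1, a chain of the growth plate, lay at 0.29 and -0.02 in clusters and -1.0 and -2.06 in islets. Its difference of 1.67 ± 0.34 (adjusted p = 0.00273) did not pass when either cluster array was left out (adjusted p = 0.0822 for replicate 1 and 0.0539 for replicate 2) or islet replicate 2 was (0.102). Col2a1, the main cartilage chain, was not well above background on any array.

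**Figure D2:**
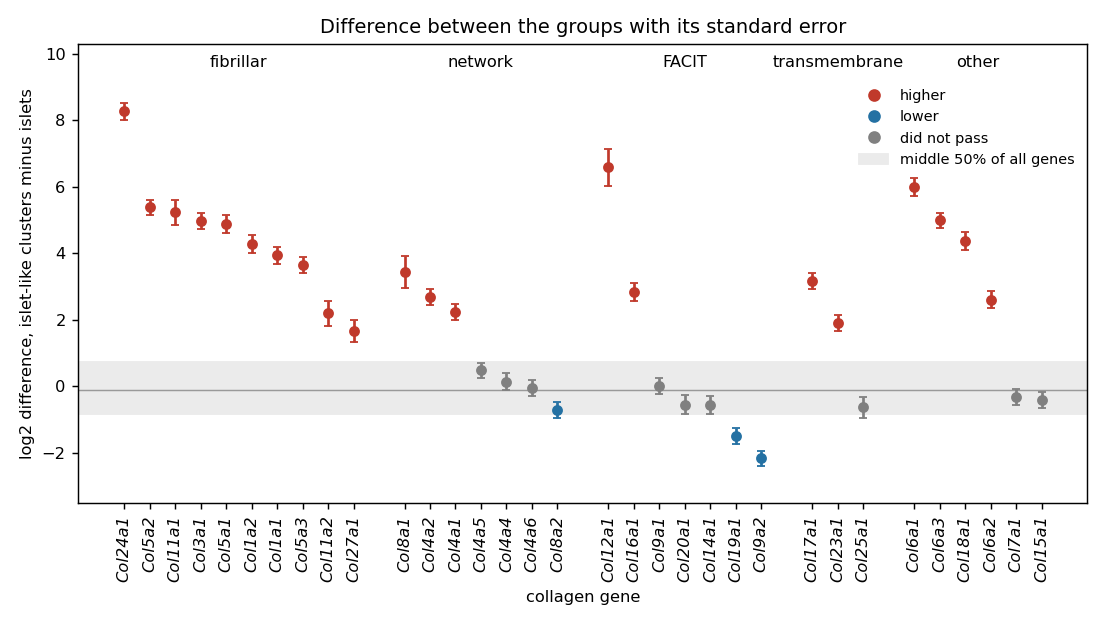
Log2 difference between islet-like clusters and islets (points) with its SE (bars, n = 2 arrays per group) for the 33 tested collagen genes, by type. The grey band spans the 25th to 75th percentile of all 24596 genes (-0.82 to 0.74). All 10 fibrillar genes lie above the band, and only Col9a2 and Col19a1 lie below it. The points of Col24a1, Col11a1, Col8a1, Col12a1 and Col19a1 are fitted from a group in which the probe was dim.

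Of the type IV chains of basement membranes, Col4a1 and Col4a2 were called higher by their brightest probes and no other was. The 6 chains are encoded as 3 head-to-head gene pairs. Col4a1 and Col4a2, the chains present in nearly all basement membranes, have starts 21 bases apart in RefSeq (GRCm38.p6, chromosome 8). Col4a1 (mm9 chr8:11199009-11199068) lay at 3.50 and 3.33 in clusters and 1.30 and 1.03 in islets, and Col4a2 (mm9 chr8:11448840-11448899) at 3.21 and 3.00 against 0.51 and 0.32. Both were higher in clusters, by 2.24 ± 0.24 (4.73-fold, adjusted p = 3.97e-05) and 2.69 ± 0.24 (6.45-fold, adjusted p = 1.06e-05).

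The chains of more restricted membranes, such as those of kidney glomeruli, were not called by their brightest probes. Col4a5 lay at -0.22 and -0.47 in clusters and -0.70 and -0.94 in islets, a difference of 0.48 ± 0.24 (adjusted p = 0.120) that passed with scaling to the array median (0.67, adjusted p = 0.0368). Its neighbour Col4a6, whose start lies 1343 bases away on the X chromosome, differed by -0.05 ± 0.25 (adjusted p = 0.891) and its groups overlapped. Col4a4 differed by 0.14 ± 0.26 (adjusted p = 0.678), again with overlapping groups, and its partner Col4a3 was dim on all arrays.

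Of the hexagonal network collagens, known from the cornea and vessel walls, Col8a1 lay at -2.18 and -2.76 in clusters and was not well above background in islets (-5.04 and -6.79). It was at least 5.61-fold higher (adjusted p = 0.000280 for the fitted difference). With normexp background correction its difference was 0.69, under that bound. Its islet arrays were 1.75 apart, and the bound was 5.30-fold without islet replicate 1 and 5.93-fold without islet replicate 2. Col8a2 was called lower (-3.42 and -3.67 in clusters, -2.90 and -2.74 in islets, a difference of -0.72 ± 0.24, adjusted p = 0.0278), a call that depended on the probe and that the same probe lost in 7 alternatives (adjusted p from 0.0562 to 0.433). Col10a1, the chain of hypertrophic cartilage, was dim on all arrays.

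Endothelial cells lay down the basement membrane of vessels, and their markers ran the other way from Col4a1 and Col4a2. All 5 were lower in clusters (summed level 1.53 to 1.83 in clusters and 3.88 to 3.89 in islets), where 28.2% of all genes tested were lower. Cdh5, Tek and Robo4 were dim on both cluster arrays, so a call for them could only be lower. Pecam1 and Kdr, well above background on all arrays, differed by -1.37 ± 0.23 and -0.88 ± 0.25. Of 5 stellate and smooth muscle markers 0 were higher and 3 lower, where 26.6% of all genes tested were higher and 28.2% lower. Myh11, 1 of the lower genes, was dim on both cluster arrays, so its call could only be lower. The summed level (2.31 to 2.58 in clusters and 3.96 to 4.84 in islets) came mostly from Tagln, which differed by -2.02 ± 0.35. Des differed by -0.05 ± 0.24 and Acta2 by -0.99 ± 0.38 (adjusted p = 0.0507), and neither passed. The mesenchymal markers above moved with the fibrillar genes. Their part in the collagen differences was not tested.

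FACIT chains went both ways, 2 of 7 higher and 2 lower, near the shares over all genes tested (26.6% higher and 28.2% lower). Col12a1, which binds type I fibrils in dense connective tissue (mm9 chr9:79446895-79446954), lay at 0.76 and 0.63 in clusters and was not well above background in islets (-7.0 and -4.78). It was at least 64.8-fold higher (adjusted p = 9.8e-06 for the fitted difference). The bound was 44.4-fold without islet replicate 1 and 94.4-fold without islet replicate 2. With normexp background correction its difference was 2.88, under each of these bounds. Col16a1 lay at 4.74 and 4.61 in clusters and 2.11 and 1.57 in islets, a difference of 2.84 ± 0.26 (7.16-fold, adjusted p = 1.48e-05).

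In the other direction, Col9a2, a chain of the type IX collagen of cartilage (mm9 chr4:120727698-120727757), lay at -2.94 and -2.97 in clusters and -0.83 and -0.74 in islets. It was 4.50-fold lower (-2.17 ± 0.23, adjusted p = 3.6e-05), with no overlap between groups. Col9a1, of the same collagen, differed by 0.01 ± 0.25 (adjusted p = 0.976), and Col9a3 was dim on all arrays. Col19a1, a chain of basement membrane zones, lay at -4.14 and -4.27 in islets but was dim on both cluster arrays (-5.50 and -5.89), at least 2.00-fold lower (adjusted p = 0.000742). With normexp background correction its difference was -0.40 (adjusted p = 0.161). Col14a1, another fibril-binding chain (-0.56 ± 0.28, adjusted p = 0.113), and Col20a1 (-0.55 ± 0.28, adjusted p = 0.131) did not pass.

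Among the transmembrane chains, Col17a1, the hemidesmosome collagen of epithelial cells (mm9 chr19:47720894-47720953), lay at -0.68 and -0.73 in clusters and at -3.74 and -4.0 in islets. It was 8.97-fold higher in clusters (3.17 ± 0.23, adjusted p = 3.17e-06). The epithelial markers Krt8, Krt18, Cdh1 and Epcam were dim on the same cluster arrays. Another, Krt19, was dim on cluster replicate 1 but well above background on cluster replicate 2 (-4.62). Col23a1 differed by 1.90 ± 0.24 (3.74-fold, adjusted p = 0.000137). Col25a1, a neuronal chain that binds amyloid fibrils, differed by -0.63 ± 0.32 (adjusted p = 0.127), with overlapping groups, and on cluster replicate 1 its probe was dim.

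The remaining members included the type VI chains, which build beaded microfibrils around cells. Col6a1 (mm9 chr10:76171538-76171597) lay at 5.64 and 5.47 in clusters and -0.10 and -0.79 in islets, a difference of 6.0 ± 0.28 (64.0-fold, adjusted p = 1.52e-07), the largest among members well above background on all 4 arrays. Col6a3 lay at 6.22 and 5.97 against 1.22 and 0.99 (4.99 ± 0.24, 31.8-fold, adjusted p = 1.75e-07). Col6a2, which neighbours Col6a1 and forms a trimer with both, differed by less, 2.61 ± 0.26 (6.09-fold, adjusted p = 2.38e-05). The difference between these chains was not tested.

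Col18a1, the basement membrane multiplexin from which endostatin is cut, lay at 5.44 and 5.19 in clusters and 1.21 and 0.68 in islets, a difference of 4.37 ± 0.26 (20.7-fold, adjusted p = 8.21e-07). Its fellow multiplexin Col15a1 lay at -4.10 and -4.50 against -3.86 and -3.93 and did not pass (-0.41 ± 0.24, adjusted p = 0.189), although it did with scaling over probes well above background on all arrays (-0.60, adjusted p = 0.0229). Col7a1, the anchoring fibril chain of skin, did not pass (2.52 and 2.33 in clusters, 2.55 and 2.94 in islets, a difference of -0.32 ± 0.25, adjusted p = 0.299).

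Among the 8 members with more than 1 probe kept, probes of a gene did not always give the same answer. The second Col8a2 probe (mm9 chr4:125991441-125991500) lay at -1.98 and -2.18 in clusters and was not well above background in islets (-5.18 and -6.66), at least 7.71-fold higher (adjusted p = 0.000187 in a limma fit over all probes kept), against the lower call of the probe used for the gene (mm9 chr4:125989478-125989537). The second Col4a6 probe (mm9 chrX:137599990-137600049) lay at -1.73 and -2.88 in islets but was dim in clusters (-6.82 and -5.57), at least 7.49-fold lower (adjusted p = 0.000296), while the brightest probe (mm9 chrX:137601433-137601491) showed no called difference. Each of these second probes was kept through 1 group only, so a call could only be toward the group in which it was bright. The answer given for these 2 genes therefore rests on the choice of probe.

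Other pairs differed in size. The second Col6a2 probe, dim in islets, was at least 15.9-fold higher, and the probe used was 6.09-fold higher. The GGN probe of Col16a1 gave 1.68 ± 0.24, and the 2 others 2.84 and 2.91. The GGN probe of Col4a4 was higher in clusters by 0.85 ± 0.24 (adjusted p = 0.0177), and the brightest probe differed by 0.14. For Col14a1 the GGN probe, its brightest, gave -0.56 and the other probe 0.82 ± 0.32 (adjusted p = 0.0599), neither called. The second probes of Col23a1 (0.81 ± 0.25, adjusted p = 0.0252) and Col20a1 (-0.83 ± 0.25, adjusted p = 0.0247) kept the direction of the first.

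**Figure D3:**
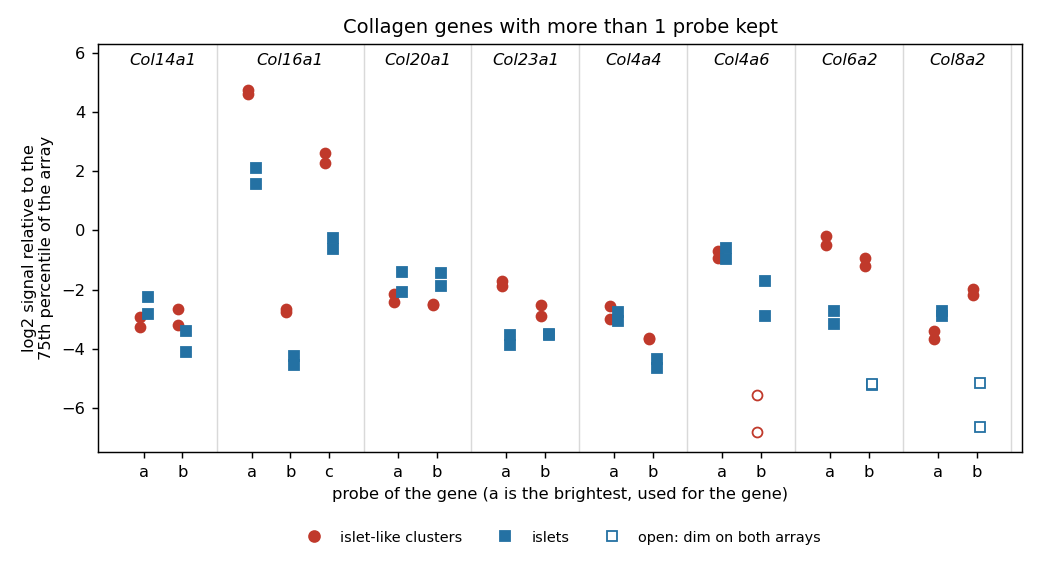
Log2 signal (y axis, relative to the 75th percentile of the array) of each kept probe of the 8 collagen genes with more than 1, with circles for the 2 cluster arrays and squares for the 2 islet arrays. Open symbols mark a probe dim on both arrays of a group. The 2 probes of Col8a2 and of Col4a6 give different answers, while the 3 of Col16a1 are all higher in clusters.

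Replicate arrays were close for most members. The 2 cluster arrays differed by at most 1.14 among the 33 tested genes (Col11a1), with replicate 1 brighter by a median of 0.22, the same as over all genes (0.22). The islet arrays ranged from -2.22 (Col12a1) to 1.75 (Col8a1) for replicate 1 minus replicate 2, but both of these probes were dim on both islet arrays. Among members well above background on both islet arrays the largest gap was 1.06 (Col27a1). The median difference of the islet arrays over the 33 genes was -0.16, against -0.02 over all genes.

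Promoters from RefSeq (GRCm38.p6) matched 35 of the 43 members and gave 38 start sites. The 250 bases before each start were searched on both strands for the CCAAT box (letters CCAAT), the TATA box (letters TATAAA) and the GC box (letters GGGCGG), none of which is spelled within another. CCAAT was in 13 of 38 (34.2%, against 33.8% of all 32851 promoters), TATAAA in 5 (13.2% against 12.4%) and GGGCGG in 22 (57.9% against 32.7%). GGGCGG was in 13 of the 20 windows of genes higher in clusters and in 6 of the 12 of genes that were lower or did not pass. The windows of Col1a2 and of Col24a1, a type I chain and the fibrillar gene with the largest bound, are shown with these motifs in capitals, the first at chr6:4505368-4505617 (+) and the second at chr3:145292222-145292471 (+).
Col1a2: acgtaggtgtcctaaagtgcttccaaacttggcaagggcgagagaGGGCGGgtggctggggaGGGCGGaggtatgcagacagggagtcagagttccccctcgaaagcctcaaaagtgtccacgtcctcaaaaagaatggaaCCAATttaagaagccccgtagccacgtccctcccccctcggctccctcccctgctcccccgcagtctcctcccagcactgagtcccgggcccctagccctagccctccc
Col24a1: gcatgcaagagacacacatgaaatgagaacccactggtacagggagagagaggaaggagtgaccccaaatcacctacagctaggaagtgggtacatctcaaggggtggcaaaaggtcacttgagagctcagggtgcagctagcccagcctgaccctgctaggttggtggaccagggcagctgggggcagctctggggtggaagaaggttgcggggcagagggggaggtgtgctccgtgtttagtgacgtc
The Col1a2 window holds 1 CCAAT, 104 bases before the start, and 2 GGGCGG. That of Col24a1 holds none of the 3 motifs, although both genes were higher in clusters.

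Genes that handle collagen were read beside the chains, in 5 lists of 56 genes in all. Of 53 tested, 38 were higher in clusters, 4 lower and 11 did not pass, where 26.6% of all genes tested were higher and 28.2% lower. The median difference was 2.74, and 2.09 with the genes dim in 1 group at their bound. With only probes well above background on all arrays 36 of 47 were higher and 2 lower. Among enzymes and chaperones of chain modification and folding 14 of 20 were higher, led by the lysyl hydroxylase Plod2 (4.03 and 3.79 in clusters, -0.81 and -0.80 in islets, 4.72 ± 0.23, adjusted p = 2.07e-07). The folding factor Fkbp10 (4.45), the prolyl 3-hydroxylase Leprel2 (4.32) and the collagen-binding matricellular protein Sparc (3.63) followed. Glt25d2, a collagen galactosyltransferase, was the 1 lower gene, at least 2.04-fold (adjusted p = 0.000123 for the fitted difference), and 5 did not pass. Glt25d2 was dim on both cluster arrays, so a call could only be lower, and its difference was -0.56 with normexp background correction.

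Propeptide cleavage and crosslinking genes were mostly higher, where 26.6% of all genes tested were higher. With only probes well above background on all arrays 5 of 7 cleavage genes were higher and 2 did not pass. All 5 of 5 crosslinking genes were higher so tested. Of 8 cleavage genes 7 were higher, among them the enhancer of C-propeptide cleavage Pcolce (7.92 and 7.68 in clusters, 1.13 and 0.82 in islets, 6.83 ± 0.24, adjusted p = 2.94e-08) and the N-propeptidases Adamts14 (5.59, 2.89 with the mean of its probes) and Adamts2 (4.54). Tll1, a tolloid-like proteinase, was called from a probe dim in islets, but its difference was 0.06 (adjusted p = 0.873) when only probes well above background on all arrays were used. Adamts3 was also called from a probe dim in islets, and a call from such a probe could only be higher. All 5 lysyl oxidases tested were higher, with Loxl1 at 5.76 ± 0.27 (adjusted p = 1.43e-07), Lox at 4.75, Loxl3 at 4.74 and Loxl2 at 2.74.

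Receptors divided. Ddr2, the discoidin receptor of mesenchymal cells, lay at 5.75 and 5.53 in clusters and -1.21 and -1.14 in islets and was higher by 6.82 ± 0.23 (adjusted p = 2.37e-08), whereas Ddr1, its epithelial counterpart, was lower by -1.61 ± 0.23 (adjusted p = 0.000301). Among integrin chains Itga11, which binds type I collagen, was higher (2.85) and Itga2 was lower by at least 14.7-fold (adjusted p = 7.55e-08 for the fitted difference). Itga2 was dim on both cluster arrays, so a call could only be lower, and its difference was only -1.76 with normexp, under that bound. The uptake receptor Mrc2 (5.68) was higher and the type III collagen receptor Gpr56 (now Adgrg1) lower (-5.79). In all 5 of 10 receptor genes were higher, 3 lower and 2 did not pass. Of all genes tested 26.6% were higher and 28.2% lower, so the lower count was near the share over all genes. Lair1, an inhibitory collagen receptor of leukocytes, was called higher (1.05 ± 0.25, adjusted p = 0.00577) but did not pass with cluster replicate 1 left out (adjusted p = 0.0620), nor with islet replicate 1 (0.231) or 2 (0.0716).

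Genes of collagen breakdown were higher together with the chains, 7 of 10, with 0 lower. Of all genes tested 26.6% were higher and 28.2% lower. With only probes well above background on all arrays 6 of 8 breakdown genes were higher and 0 lower, where 25.3% of all genes so tested were higher. Mmp2, a gelatinase, lay at 6.68 and 6.38 in clusters and -1.11 and -1.23 in islets (7.70 ± 0.24, adjusted p = 1.54e-08). The lysosomal collagenase cathepsin K, Ctsk, differed by 7.36, the interstitial collagenase Mmp13 by 7.05 and the gelatinase Mmp9 by 4.99. Macrophage markers were higher in clusters in 0 and lower in 2 of 4 tested genes, with a summed level of 1.46 to 1.64 in clusters and 3.83 to 4.91 in islets, and their part in these differences was not tested.

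**Figure D4:**
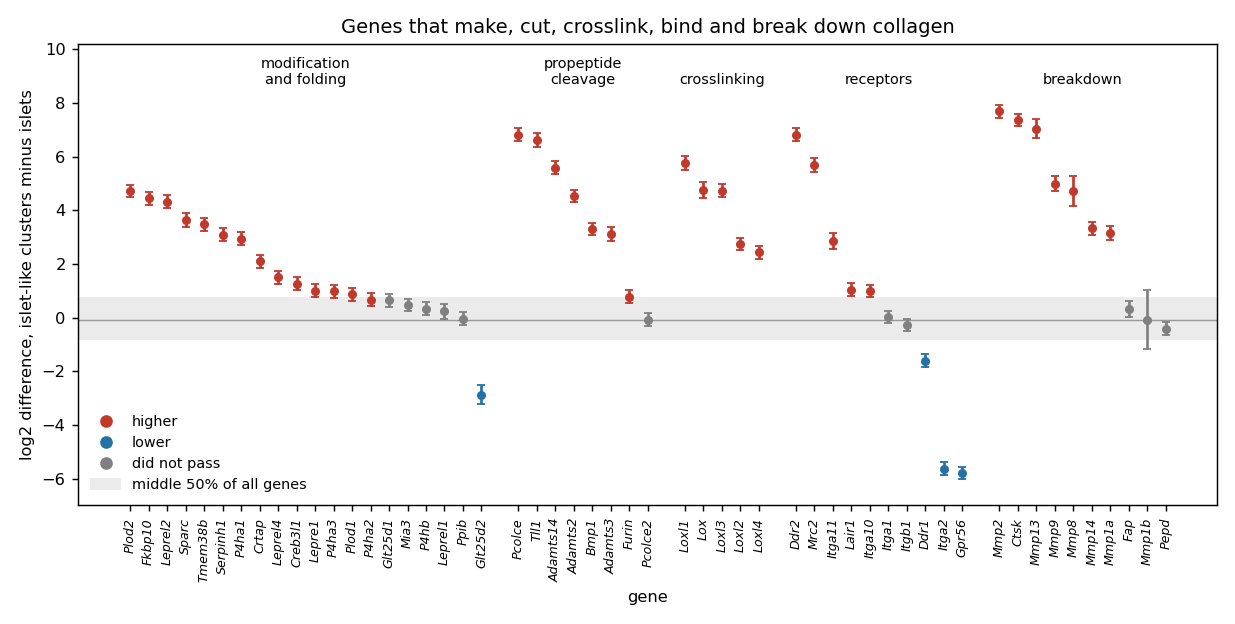
Log2 difference between islet-like clusters and islets (points) with its SE (bars, n = 2 arrays per group) for 53 genes that modify, cut, crosslink, bind or break down collagen. The grey band spans the 25th to 75th percentile of all genes (-0.82 to 0.74). All 5 crosslinking genes lie above the band, and the receptors lie on both sides of it.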

How the data were processed

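RNA of 4 samples (2 per group, from the sample titles) was read on single-colour Agilent arrays, with 500 ng of total RNA primed with oligo-dT per the labels' protocols. The values deposited per array are linear intensity of each spot from Agilent Feature Extraction 11.5.1.1 per the file headers, background-subtracted and detrended (on cluster replicate 1 the detrending factor was 1 throughout), with probe positions on mm9. The authors' deposited value table holds log2 values that correlated with the scanner values at r = 0.99995 or above and served as an alternative. Flags for dim, saturated and non-uniform spots are the software's, and all 4 arrays were on 1 slide.

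Here log2 of the processed signal was scaled to the 75th percentile of each array. Control and non-uniform spots were left out, 490 probes with no value on at least 1 array were dropped, and spots of a probe were averaged. Probes well above background on both arrays of a group were kept (34974), and the brightest stood for its gene (24596 genes). The fit was made in R 4.3.3 with limma 3.58.1, 2-sided, Benjamini-Hochberg adjusted over all genes tested, threshold 0.05, on 2 residual degrees of freedom (9.06 with the prior). It was tested on simulated data. A fold written as "at least" sets the bright group's mean against, per array of the dim group, the higher of the lowest well-detected signal and the probe's own. The adjusted p beside such a fold belongs to the fitted difference and not to the bound. With normexp background correction some differences fell under their bound. The number of arrays limits the precision. All 43 member symbols were found in the RefSeq table (GRCm38.p6).

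All collagen genes were named, and of each handling list the 4 called genes per direction with the largest difference. Members, lists and markers were chosen with earlier results of these data known. Alternatives were other background corrections, scalings, filters, a floor, non-uniform spots kept, the mean of a gene's probes, another variance model, the authors' values, a replicate block and leaving out each array. The fit over all probes was added after seeing the data.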

Additional observations from a re-analysis of the deposited data

How the results depend on the processing

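Of the 24 collagen genes called, 20 kept their call under every one of the 16 alternatives that gave a value for them, and the others were Col8a2, Col19a1, Col11a2 and Col27a1. Without a filter on dim probes the collagen genes numbered 43 and their median difference was 0.48, since 10 dim genes entered. With normexp background correction the median was 1.20, 22 genes were higher and 1 lower. It was 2.80 with scaling to the array median (which moved the median of all genes by 0.20 and made 58.1% of calls higher against 48.5%) and 2.42 with scaling over the probes detected on every array (-0.19 and 40.3%). With 1 array left out the collagen median ran from 2.39 to 2.75, with 19 to 21 genes higher and 2 lower, and the count of all genes called, 13490, fell to between 7650 (without islet replicate 2) and 10120, being 8266 without islet replicate 1, where 1 group has a single array assumed to vary like the other. Normexp reduced several called differences by over 1.5 times, among them Col24a1 3.68, Col12a1 2.88, Col11a1 1.20, Col8a1 0.69, Col11a2 0.62, Col6a2 1.53, Col17a1 1.51, Col23a1 0.72 and, lower, Col9a2 -1.36, and of the handling genes Tll1 3.71, Loxl3 2.51, Itga2 -1.76, Lair1 0.69 and Glt25d2 -0.56. Col8a2 turned with normexp (0.88), with the mean of its probes (1.56) and with its other probe (3.84), the first and last reading the same second probe, and lost its call in 7 other alternatives. Col4a6 was lower with the mean of its probes (-1.97, adjusted p = 0.000211). With the replicate block 21 collagen genes were higher and 2 lower, with 11307 genes called in all, and Col8a2 alone among the collagen genes lost its call (adjusted p = 0.0655). The labels do not say whether the replicate numbers pair the samples. Deviations of same-numbered arrays correlated at r = -0.02, which with 2 arrays per group cannot settle whether they are paired. Signal near background limits the size of a difference, and fitted values of members dim in 1 group rest on it.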
